A study of Mus musculus with 8 samples.

Results

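Of the 27775 gene rows in the count tables of 2 mouse pancreatic tumors, the rows described here are those of 8 genes listed by symbol: Cd47, Sirpa, Cd274, Pdcd1lg2, Cd80, Cd86, Pvr and Cd276. All 8 rows were found in both tables. The genes encode surface proteins through which a cell tells a phagocyte, T cell or NK cell to act or to hold back. CD47 is carried by most cells and binds SIRPα on macrophages, where the pair restrains the engulfing of the cell that carries CD47. PD-L1 (Cd274) and PD-L2 (Pdcd1lg2) bind PD-1 on T cells and dampen them. CD80 and CD86, the B7 proteins of antigen-presenting cells, bind CD28 or CTLA-4 and so start or limit a T cell response. The poliovirus receptor (Pvr) is read by TIGIT, CD226 and CD96 on T and NK cells, and B7-H3 (Cd276) is a further B7 relative found on many tumors and their stroma. In carcinoma these genes can be carried by the malignant cells, by macrophages, or by both, so their levels were described by cell group and by state of the epithelial-like cells.

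The tumors came from KPC mice, a line in which Pdx-1-Cre switches on its engineered alleles where the Pdx-1 promoter is active, in cells of the pancreatic lineage. Both tumors thus share the mutant LSL-Trp53R172H/+ allele. No treatment of the mice was described, and their age was not given in the sources used here. One tumor was labelled medium and 1 large in size, and the 4 technical replicates of each were pooled in 1 table, so each size rests on 1 sample and no difference between sizes or between cells has a replicate check. Tumors were dissociated with an enzyme kit and captured without a stated sort on the 10x Genomics Chromium 3′ platform (v2 chemistry), which counts each captured mRNA molecule once by its unique molecular identifier (UMI).

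The medium tumor held 2812 cells with a median of 5456.5 UMIs, and the large tumor 1533 cells with a median of 1037 UMIs, of which 596 had under 500 detected genes. The tables shared 5 cell barcodes. Each tumor was clustered on its own, and a cluster was called by cell type only where marker genes of that type were found in it. In the medium tumor this gave 2331 epithelial-like cells in 8 clusters, 238 monocyte/macrophage-like cells in 2 clusters, 67 stromal-like cells and 38 endothelial-like cells. A cluster of 74 cells led by Dcn and Upk3b and a cluster of 64 cells with both epithelial and macrophage markers stayed unnamed. In the large tumor it gave 1219 epithelial-like cells, among them an enterocyte-like cluster of 214 cells and a goblet-like cluster of 155 cells, beside 253 monocyte/macrophage-like, 50 stromal-like and 11 endothelial-like cells. No cluster took the name of T or NK cells: the 7 of 8 T cell markers with a row in the tables summed to 54 UMIs in the medium and 4 UMIs in the large tumor, and the 7 NK markers to 12 and 13 UMIs.

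Levels are UMIs of a gene per 1000000 UMIs of a cell group (CPM), with an exact 95% Poisson interval that covers counting error only. For a count of 0, the level said to be allowed is that of 3 UMIs, in place of the upper end of this interval. The CPM of different genes were not compared, except as shares, since each is read from the 3′ end of its own transcript. A ratio between groups is given with its exact 95% interval, was called at 2 or more in either direction, and was called only for genes with at least 50 UMIs over both groups. With 1 tumor of each size and cells that are no replicates of it, no p-value is given. In a sum over cells of a group, fewer positive cells and less RNA per cell cannot be told apart.

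The 8 genes differed widely in depth. Cd47 had 5220 UMIs in the medium and 672 in the large tumor, and Pvr 1106 and 70. Cd276 had 299 and 21 UMIs, Sirpa 266 and 29, and Cd86 146 and 16. The remaining genes were sparse: Cd274 had 59 and 10 UMIs, Cd80 23 and 1, and Pdcd1lg2 16 and 7. No cell held more than 2 UMIs of Cd274 or Pdcd1lg2, and every cell with Cd80 held 1.

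**Figure D1:**
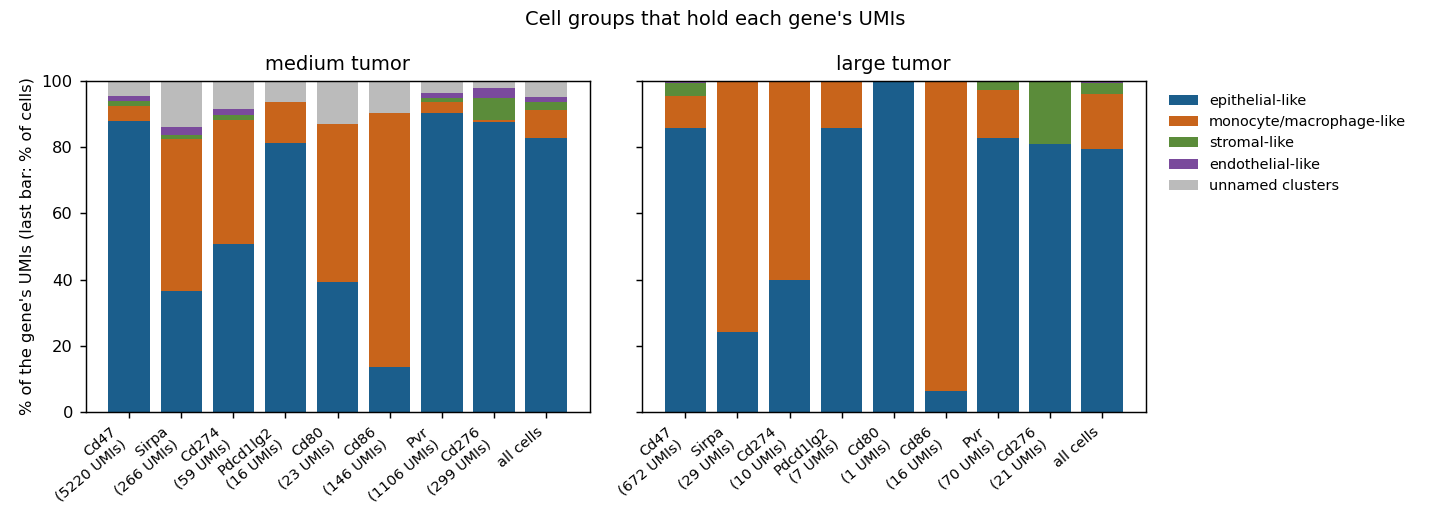
Share of each gene's UMIs (vertical axis, percent) held by each cell group in the medium and the large tumor, with the total UMIs of the gene under its bar and the share of cells in the last bar. In the medium tumor, macrophage-like cells were 8.46% of cells and held 76.7% of Cd86 UMIs and 4.48% of Cd47 UMIs. They were shallower and held 920637 of the tumor's 20301669 UMIs. Their Cd47 CPM was 1.00 times that of epithelial-like cells.

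In the mouse genome (GRCm38, GENCODE M21), the genes for the B7 proteins CD80 and CD86 and the gene for CD47 lie on chromosome 16, at chr16:38455561-38496335, chr16:36603869-36666081 and chr16:49800533-49915010. The genes for both PD-1 ligands are neighbours on the forward strand of chromosome 19, Cd274 at chr19:29367455-29388095 and Pdcd1lg2 at chr19:29410919-29471161, with 22823 bases between them. Sirpa lies at chr2:129592835-129632228, Pvr at chr7:19903578-19921160 and Cd276 at chr9:58524298-58555437. All are annotated as protein coding. An older name of Nectin2 is also Pvr, but the tables list that gene in a row of its own as Pvrl2.

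The sequences shown are the 250 bases before the RefSeq start of the neighbouring ligand genes Cd274 and Pdcd1lg2, since both had their highest epithelial-like level in the same cluster, as described further on. They read 5′ to 3′ on the forward strand (RefSeq, GRCm38.p6). Capitals mark the match to the NF-kB motif, the only match in them among the motifs searched.
Cd274, chr19:29367188-29367437: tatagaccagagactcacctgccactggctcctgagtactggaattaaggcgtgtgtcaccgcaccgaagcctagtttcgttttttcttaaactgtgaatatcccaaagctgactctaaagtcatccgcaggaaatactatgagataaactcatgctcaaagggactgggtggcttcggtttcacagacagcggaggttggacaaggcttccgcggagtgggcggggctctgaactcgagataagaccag
Pdcd1lg2, chr19:29410669-29410918: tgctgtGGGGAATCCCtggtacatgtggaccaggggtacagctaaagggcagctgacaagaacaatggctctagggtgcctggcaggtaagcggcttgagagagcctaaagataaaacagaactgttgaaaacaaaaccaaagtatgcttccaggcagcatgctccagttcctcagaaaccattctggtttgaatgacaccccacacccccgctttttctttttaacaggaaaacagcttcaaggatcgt
The motifs were searched on both strands of the 6 promoter windows that the table holds for 5 of the 8 genes. NF-kB, a factor of inflammatory signalling, had its match in the Pdcd1lg2 window, starting 244 bases before the start, and in 5.93% of 32851 promoter windows of all genes. The interferon-gamma site GAS (TTCNNNGAA) and the IRF site (GAAANNGAAA) had no match in these windows and were found in 7.02% and 2.98% of all windows.

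Cd47, the ligand of the phagocytosis checkpoint, was detected in every cluster of the medium tumor and at nearly the same level in epithelial-like and macrophage-like cells. It stood at 254 CPM (247 to 261) in epithelial-like cells and 254 CPM (223 to 289) in macrophage-like cells, a ratio of 1.00 (0.874 to 1.14). Stromal-like cells had 220 CPM (172 to 276) and endothelial-like cells 382 CPM (307 to 470), which was 1.505 times (1.21 to 1.85) the epithelial-like level. Over all 14 clusters the highest level, that of the endothelial-like cluster, was 1.82 times the lowest, 209 CPM (186 to 236) in an epithelial-like cluster led by Dmbt1, and these intervals lay apart. Those of neighbours in the order of levels overlapped in all 13 pairs. A Cd47 UMI was found in 72.8% of epithelial-like cells, whose median depth was 5980 UMIs, and in 59.2% of macrophage-like cells, whose median was 3516. With every cell thinned to 2500 UMIs these shares were 45.0% and 42.9%.

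Sirpa, which encodes the receptor that reads CD47, was a macrophage gene in these tumors. Its level was 133 CPM (110 to 158) in macrophage-like cells and 5.36 CPM (4.35 to 6.54) in epithelial-like cells of the medium tumor, a ratio of 24.7 (18.8 to 32.6). The macrophage-like clusters, 1 led by Wfdc17 and Chil3 and 1 by Cd74 and C1qa, had 128 and 148 CPM, a ratio of 1.15 (0.728 to 1.78) that spans equality. Sirpa was also found in endothelial-like cells at 25.5 CPM (9.35 to 55.4) from 6 UMIs, and in stromal-like cells at 12.0 CPM (3.28 to 30.9) from 4 UMIs. Of 223 cells of the medium tumor with a Sirpa UMI, 94 were epithelial-like, and 162 also had a Cd47 UMI. Among all cells of this tumor 71.4% had a Cd47 UMI.

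Cd86 divided the cell groups most sharply. It had 112 UMIs in macrophage-like cells, or 122 CPM (100 to 146), and 20 UMIs in epithelial-like cells, or 1.11 CPM (0.675 to 1.71), a ratio of 110 (68.0 to 187). No Cd86 UMI was found among 331964 UMIs of stromal-like cells or 235577 UMIs of endothelial-like cells, which allows up to 9.04 and 12.7 CPM. The cluster led by Wfdc17 and Chil3 had 131 CPM of Cd86 and the one led by Cd74 and H2-Aa, genes of antigen presentation, 84.7 CPM, a ratio of 0.646 (0.355 to 1.10) that also spans equality. Cd80, the partner B7 gene, was at 11.9 CPM (5.96 to 21.4) in macrophage-like cells from 11 UMIs and at 0.497 CPM (0.227 to 0.944) in epithelial-like cells from 9 UMIs, a ratio of 24.0 (9.05 to 65.6). It had too few UMIs to be called. Of 23 cells with Cd80, 8 also had a Cd86 UMI, and 6 of these were macrophage-like.

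The gene for PD-L1, Cd274, was low everywhere and higher in macrophage-like than in epithelial-like cells. It had 22 UMIs or 23.9 CPM (15.0 to 36.2) in the 238 macrophage-like cells and 30 UMIs or 1.66 CPM (1.12 to 2.37) in the 2331 epithelial-like cells, a ratio of 14.4 (7.92 to 25.8). The macrophage-like clusters had 23.2 and 26.5 CPM. At a clustering resolution of 1.2, where a cluster led by Inhba lost its epithelial name, the ratio was 25.8 (12.8 to 53.5). The gene for PD-L2, Pdcd1lg2, had 2 UMIs in macrophage-like and 13 UMIs in epithelial-like cells, and its ratio of 3.02 (0.331 to 13.4) left the direction undetermined at this depth. Of the medium tumor's 54 cells with Cd274 and 15 with Pdcd1lg2, 1 held a UMI of both PD-1 ligands. These counts are too small to tell whether the ligands share cells.

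Pvr and Cd276 had a different pattern. Pvr was found in all 14 clusters, at 55.2 CPM (51.8 to 58.7) in epithelial-like, 42.4 CPM (30.1 to 57.9) in macrophage-like, 39.2 CPM (20.9 to 67.0) in stromal-like and 63.7 CPM (35.6 to 105) in endothelial-like cells. The macrophage-like to epithelial-like ratio was 0.768 (0.543 to 1.06). It was 0.388 (0.268 to 0.550), past the ratio of 2, with epithelial-like clusters that lacked a leading epithelial marker left out, which kept only the Krt17 cluster. Cd276 was highest in stromal-like cells at 60.2 CPM (36.8 to 93.0), followed by endothelial-like cells at 38.2 CPM (17.5 to 72.5) and epithelial-like cells at 14.5 CPM (12.8 to 16.3). The stromal-like level was 4.16 times (2.50 to 6.56) and the endothelial-like level 2.64 times (1.19 to 5.09) that of epithelial-like cells. Macrophage-like cells had 2 Cd276 UMIs, 2.17 CPM (0.263 to 7.85), a ratio of 0.150 (0.0181 to 0.547) to epithelial-like cells.

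The unnamed clusters were described apart. The cluster with both epithelial and macrophage markers had 79.2 CPM (51.8 to 116) of Sirpa, 30.5 CPM (14.6 to 56.0) of Cd86 and 15.2 CPM (4.95 to 35.6) of Cd274, each between the epithelial-like and the macrophage-like level. Scrublet, which scores barcodes by their likeness to simulated pairs of cells, called 0 doublets in this tumor. Of the 64 barcodes 31 were nonetheless among the 142 highest scores of the tumor (5% of cells). So were 12 of 74 in the cluster led by Dcn, 8 of 67 stromal-like cells and 18 of the 230 in the Inhba cluster described further on. In the other epithelial-like clusters the share ran from 0.441% to 5.80%. The cluster led by Dcn, with 6 of 6 mesothelial and 6 of 10 stromal markers, had 350 CPM (294 to 414) of Cd47, 28.1 CPM (14.0 to 50.3) of Sirpa and 7.66 CPM (1.58 to 22.4) of Cd276.

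Of the 6 genes with enough UMIs, 4 thus passed the ratio of 2 between macrophage-like and epithelial-like cells of the medium tumor: Cd274, Sirpa and Cd86 were higher in macrophage-like cells and Cd276 was lower. Cd274, with 52 UMIs over both groups, lost its call below the minimum of 50 under 5 alternatives, with 37 UMIs at a resolution of 1.2, 48 without the highest 5% of doublet scores, 46 without epithelial-like cells that had 3 or more macrophage markers, 26 without the clusters that lacked a leading epithelial marker, where Pvr was called in its place, and 23 in thinned cells. The same ratio was passed by 42.7% of all 10897 genes tested (9.79% higher and 32.9% lower in macrophage-like cells). Against epithelial-like cells, 2 of 4 tested members passed it in stromal-like cells (12.7% of all genes) and 2 of 4 in endothelial-like cells (13.0% of all genes), in both cases Cd276 and Sirpa upward. The stromal-like Sirpa ratio, 2.25, had an interval of 0.6003 to 5.94.

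**Figure D2:**
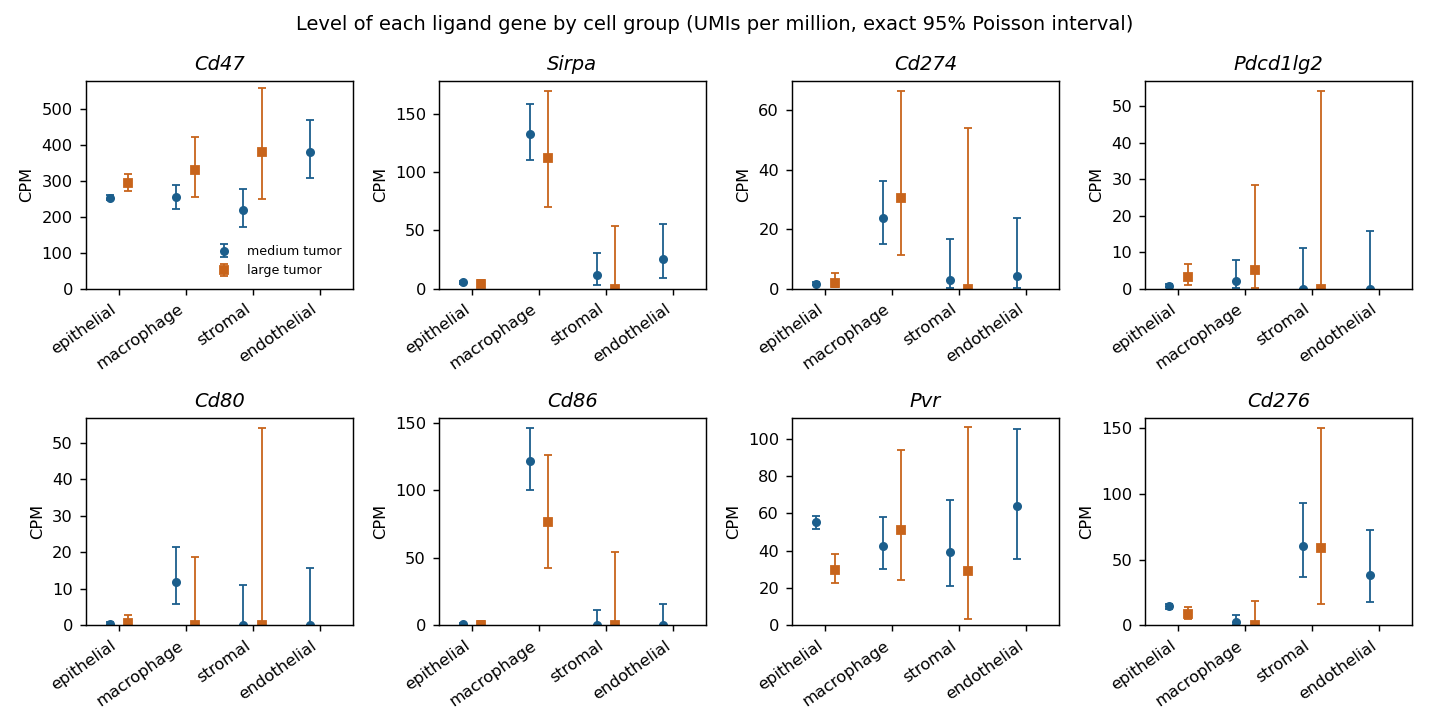
Level of each gene (vertical axes, CPM, linear, each panel with its own scale) in the named cell groups of the medium (circles) and large (squares) tumor, bars being exact 95% Poisson intervals. Endothelial-like cells of the large tumor, 11 in number, are not drawn. Cd86 and Sirpa stood highest in macrophage-like cells and Cd276 in stromal-like cells of both tumors, while Cd47 lay between 220 and 382 CPM in all groups.

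In droplet data, RNA set free from broken cells is counted in cells that do not make it, so the epithelial-like UMIs of the macrophage genes were set beside macrophage markers. The 11 macrophage markers, among them Csf1r, C1qa and Lyz2, summed to 234 CPM in epithelial-like and 29560 CPM in macrophage-like cells, so that epithelial-like cells held 0.791% of the macrophage-like level (0.396% to 3.02% for single markers). Cd86 stood at 0.909% (0.535% to 1.47%), within that range, and its 20 epithelial-like UMIs compare with 17.4 at the marker ratio. These UMIs did not stand above the marker levels and are not read as expression, and their source was not tested. Sirpa stood at 4.05% (3.07% to 5.33%), with 97 UMIs counted and 19.0 at the marker ratio. Cd274 stood at 6.94% (3.87% to 12.6%), with 30 UMIs counted and 3.42 at that ratio. Sirpa and Cd274 were thus more frequent in epithelial-like cells of the medium tumor than any of the 11 markers, relative to macrophage-like cells. Cd80 had 9 UMIs against 1.71 and Pdcd1lg2 13 against 0.311. In the large tumor Sirpa stood at 3.19% (1.15% to 7.72%) and Cd274 at 6.68% (1.39% to 28.2%). Single markers there reached 5.01%, inside both intervals, so neither gene was set apart from them.

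**Figure D3:**
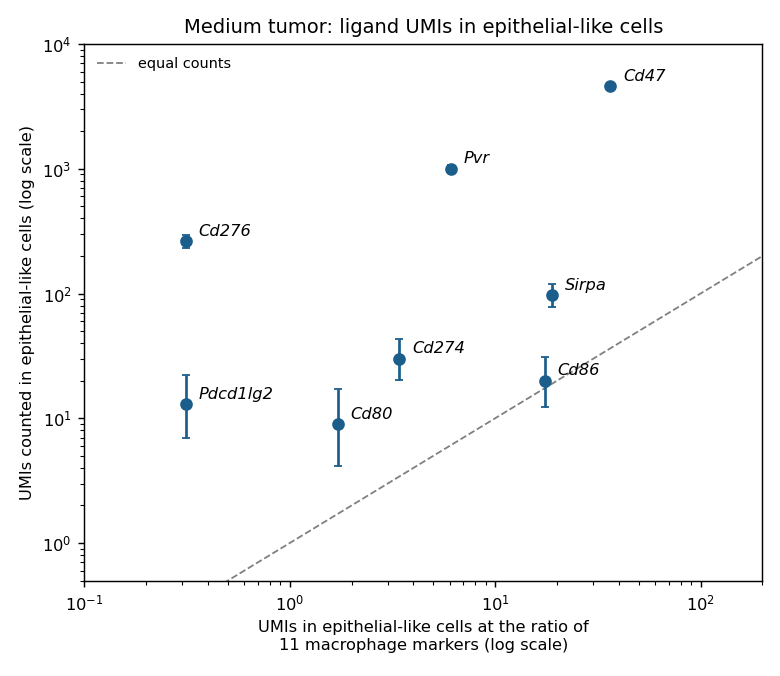
UMIs of each gene counted in epithelial-like cells of the medium tumor (vertical axis, log scale, bars exact 95% Poisson intervals) against the UMIs they would hold at the epithelial-like to macrophage-like ratio of 11 macrophage markers (horizontal axis, log scale). The interval of Cd86 crosses the dashed line of equal counts, and the other 7 genes lie above it.

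The reverse comparison was made for the macrophage-like cells, where 11 epithelial markers such as Krt8 and Cldn4 stood at 0.0575 of their epithelial-like level. At that ratio macrophage-like cells would hold 13.4 UMIs of Cd47, 2.92 of Pvr and 0.767 of Cd276. They held 234, 39 and 2 UMIs. Cd47 and Pvr therefore exceeded the level at the marker ratio in macrophage-like cells, while the Cd276 count there was too small to be told from it.

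The 8 epithelial-like clusters of the medium tumor, each named here by 1 of its leading genes, showed how the ligands vary with the state of the carcinoma. The clusters were built from all variable genes of these same cells, so their differences are given as descriptions. Pvr was highest in the Krt17 cluster, which also had Cldn4, Tnc and Fn1 among its leading genes, at 109 CPM (94.4 to 126), and next in the cluster of the secretory genes Dmbt1, Lcn2 and Muc3, at 94.9 CPM (79.1 to 113). The Krt17 cluster held 2.22 times (1.88 to 2.59) and the Dmbt1 cluster 1.83 times (1.502 to 2.20) the level of all other epithelial-like cells. The cycling Top2a cluster had 34.9 CPM (28.97 to 41.7) and the Reg1 cluster, which expressed regenerating-gene family members, 32.7 CPM (24.5 to 42.8), so that the level spanned 3.33-fold (2.45 to 4.61). Thinned to 2500 UMIs per cell, 21.2% of cells in the Krt17 cluster and 20.7% in the Dmbt1 cluster had a Pvr UMI, against 6.48% in the Top2a cluster. With coarser clusters (resolution 0.4) the cluster led by Dmbt1 took in other cells and its ratio was 1.12 (0.946 to 1.32).

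Cd276 was also highest in the Krt17 cluster, at 28.1 CPM (20.9 to 37.1), 2.17 times (1.56 to 2.96) the rest. It was lowest in the cluster led by Yap1, the effector of Hippo signalling, and its chromosomal neighbour Birc2, at 7.79 CPM (4.88 to 11.8), 0.495 times (0.305 to 0.768) the rest. The Dmbt1 cluster, high in Pvr, had 13.6 CPM (8.04 to 21.4) of Cd276, close to the 14.5 CPM of all epithelial-like cells. Sirpa, at low counts, was highest in the Dmbt1 cluster with 12.1 CPM (6.89 to 19.6) from 16 UMIs, 2.50 times (1.36 to 4.30) the rest. Macrophage markers stood at 0.719% of the macrophage-like level in that cluster, where 1.26 Sirpa UMIs would be held at the marker ratio. Cd47 varied least, from 209 CPM (186 to 236) in the Dmbt1 cluster to 315 CPM (292 to 339) in the Mcpt8 cluster, a ratio of 1.504 (1.31 to 1.73).

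Among the epithelial-like clusters, both PD-1 ligand genes were highest in the one led by Inhba, Bmp2 and the matrix metalloproteinase genes Mmp10 and Mmp13. This cluster had 230 cells, 9.87% of the epithelial-like cells, low Epcam (199.96 CPM) and Krt19 (251 CPM) and 1570 CPM of Vim. The Yap1 cluster had like Epcam (213 CPM) and Vim (1571.5 CPM), but 1359 CPM of Krt19 and 8 of 11 epithelial markers. The Inhba cluster had only 3 of 11, so that its epithelial name is the weakest of the 8. At a finer resolution (1.2), 226 of its cells formed a cluster with 2 of 11 epithelial markers, under the 3 needed for a name, and at a coarser one (0.4) 229 formed a cluster with 4 of 11. It held 15 of the 30 epithelial-like Cd274 UMIs, 7.89 CPM (4.42 to 13.02) against 0.926 CPM in the other clusters, a ratio of 8.52 (3.88 to 18.7). It held 10 of the 13 Pdcd1lg2 UMIs, 5.26 CPM (2.52 to 9.68) against 0.185 CPM, a ratio of 28.4 (7.31 to 161). Both genes were under the 50 UMIs needed for a call. Macrophage markers were also highest there, at 1.497% of the macrophage-like level against 0.549% to 0.923% in the other 7 clusters. At the marker ratio the Inhba cluster would hold 0.680 UMIs of Cd274, 0.0618 of Pdcd1lg2, 3.46 of Cd86 and 3.77 of Sirpa, beside the 15, 10, 4 and 10 counted. Without the 34 cells that had 3 or more macrophage markers, 13 Cd274 and 8 Pdcd1lg2 UMIs remained in the cluster, beside 4 of Cd86 and 2 of Sirpa.

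**Figure D4:**
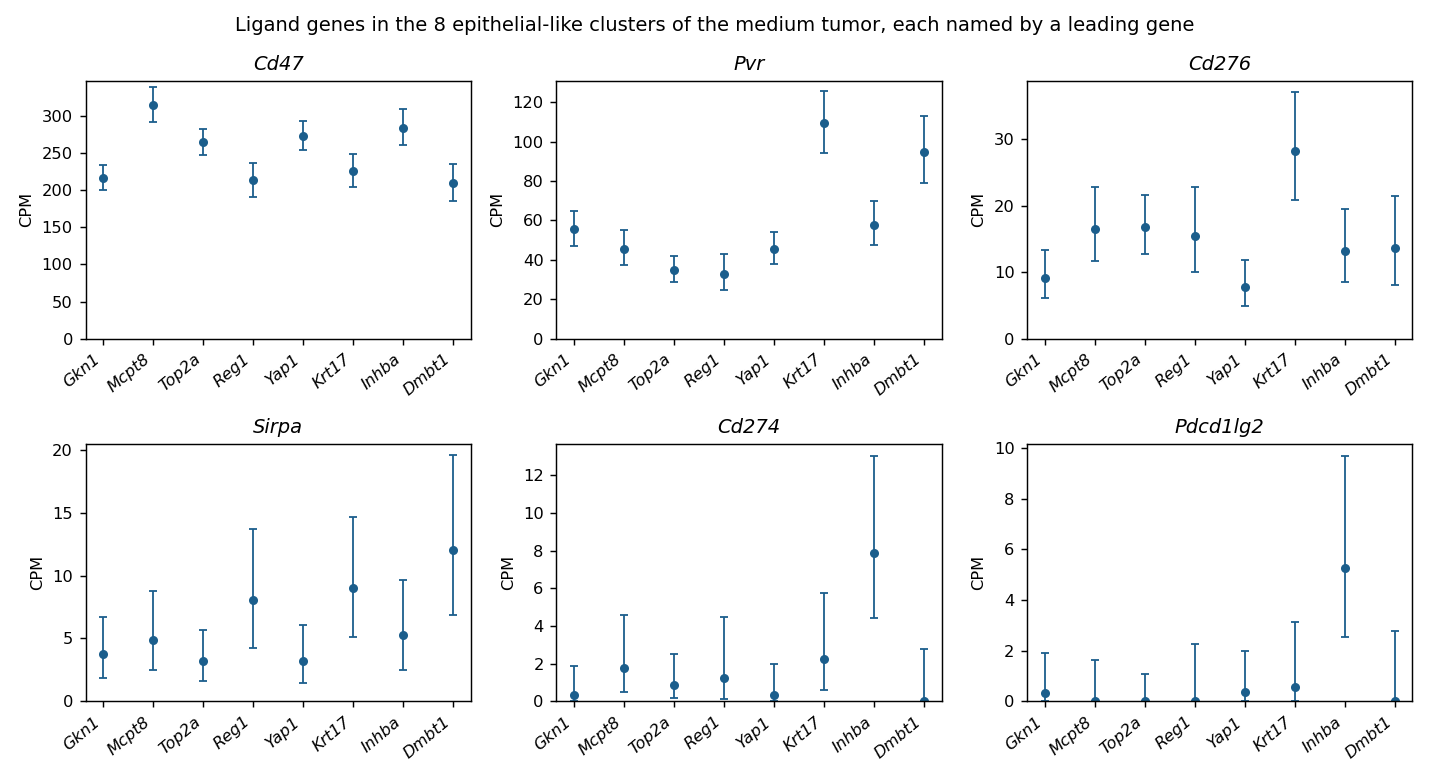
Level of 6 genes (vertical axes, CPM, each panel with its own scale) in the 8 epithelial-like clusters of the medium tumor, each named by a leading gene, with exact 95% Poisson intervals. Pvr reached 109 CPM in the Krt17 and 94.9 CPM in the Dmbt1 cluster, and Cd274 and Pdcd1lg2 stood highest in the Inhba cluster, at 7.89 and 5.26 CPM.

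Of the 4 members with enough UMIs for the comparison of a cluster with all other epithelial-like cells, 2 passed a ratio of 2 in the Krt17 cluster (Pvr and Cd276 upward, as 9.22% of all 10678 genes did), 1 in the Dmbt1 cluster (Sirpa upward, 10.3% of all genes) and 1 in the Yap1 cluster (Cd276 downward, 12.9% of all genes). None did in the other 5 clusters, where 9.41% (Mcpt8), 11.4% (Gkn1), 14.4% (Top2a), 18.4% (Reg1) and 20.6% (Inhba) of genes passed in either direction.

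Along the first principal component of the epithelial-like cells, which ran from cells rich in Epcam and Krt19 to cells rich in Vim, Cd47 was higher toward the end with more Vim. The lowest, middle and highest of 3 equal parts, 777 cells each, had 193 (180 to 206), 263 (250 to 276) and 282 CPM (270 to 294) of Cd47, while Vim went from 82.1 to 1382 CPM. The highest part held 1.46 times (1.35 to 1.58) the Cd47 level of the lowest. Sirpa had 8.60 (6.08 to 11.8), 4.53 (2.98 to 6.58) and 4.15 CPM (2.84 to 5.86), and its level in the highest part was 0.483 times (0.292 to 0.794) that of the lowest. Pvr, with 59.5, 55.1 and 52.7 CPM, had a ratio of 0.885 (0.756 to 1.04) and Cd276, with 12.9, 12.4 and 17.0 CPM, one of 1.32 (0.958 to 1.83), and both intervals span equality. The Dmbt1 cluster lay wholly in the lowest part and 96.1% of the Inhba cluster in the highest. With the Inhba cluster left out, a choice made after its values were seen, the Pvr ratio was 0.614 (0.517 to 0.729) and that of Cd47 1.33 (1.22 to 1.44). Depth moved along this order too, with a median of 4764 UMIs per cell in the lowest and 7938 in the highest part, and with every cell thinned to 2500 UMIs the Cd47 ratio was 1.53 (1.34 to 1.74). Sirpa, the single member called, compares with 10.6% of all genes that were lower in the highest part, and it had too few UMIs for a call once cells were thinned.

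**Figure D5:**
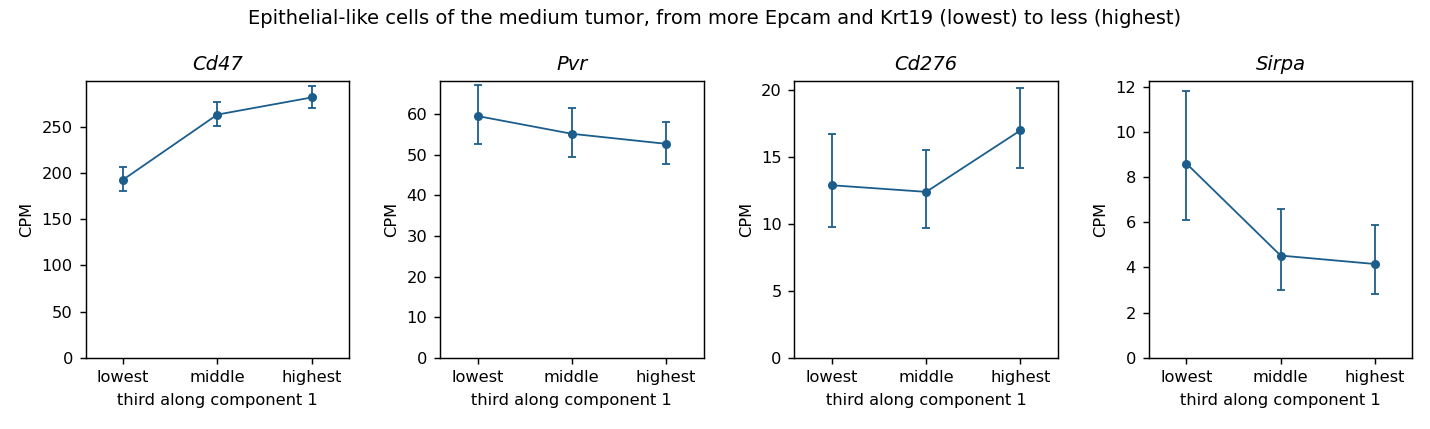
Level of Cd47, Pvr, Cd276 and Sirpa (vertical axes, CPM, each panel with its own scale) in 3 equal parts of the epithelial-like cells of the medium tumor, ordered by component 1 (horizontal axis), with exact 95% Poisson intervals. Cd47 went from 193 to 282 CPM and Sirpa from 8.60 to 4.15 CPM.

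The large tumor held 2239012 UMIs against 20301669 in the medium tumor, and its ratios for Sirpa, Cd86 and Cd274 had the same direction. Sirpa was at 112 CPM (70.3 to 170) in macrophage-like and 3.57 CPM (1.44 to 7.36) in epithelial-like cells, from 22 and 7 UMIs, a ratio of 31.4 (12.9 to 86.97). Cd86 had 15 UMIs in macrophage-like cells and 1 in epithelial-like cells, a ratio of 150 with a counting interval of 23.0 to 6305. Cd274 had 6 and 4 UMIs, a ratio of 15.0 (3.55 to 72.2). Cd276 had 4 UMIs in the 50 stromal-like cells, 58.7 CPM (16.0 to 150), 17 in epithelial-like cells, 8.68 CPM (5.06 to 13.9), and none among 196180 UMIs of macrophage-like cells, which allows up to 15.3 CPM. Cd47 was at 295 CPM (271 to 320) in epithelial-like and 331 CPM (256 to 422) in macrophage-like cells, and Pvr at 29.6 (22.5 to 38.3) and 51.0 CPM (24.4 to 93.7). Only Cd47 and Pvr had 50 UMIs over both groups, and neither passed a ratio of 2 (40.3% of all genes did).

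Among the epithelial-like clusters of the large tumor, the enterocyte-like cells stood out with the lowest Cd47 level of that tumor's clusters, 107 CPM (66.2 to 164), 0.339 times (0.208 to 0.523) that of other epithelial-like cells, a comparison in which 39.1% of all genes were lower by the ratio of 2. Pvr was at 16.4 CPM (7.86 to 30.1) in the cycling cluster, 0.461 times (0.208 to 0.922) the rest, where 11.5% of genes were lower by that ratio, and the goblet-like cells held 1 Pvr UMI, 0.174 times (0.00434 to 1.012) the rest, where 18.9% were. Pdcd1lg2 had 5 of its 6 epithelial-like UMIs in the largest cluster, led by Ggct and Ramp1, 11.1 CPM against 0.663 CPM elsewhere and a ratio of 16.7 (1.87 to 790). That cluster had 3 of 11 epithelial markers and 1644 CPM of Vim, beside 3 of 11 and 1570 CPM in the Inhba cluster of the medium tumor. Its Inhba level was 133 CPM (101 to 171), against 1028 CPM in the Inhba cluster, and the macrophage-like and stromal-like clusters of the large tumor had 158 and 132 CPM. It held 1 Cd274 UMI.

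Between the tumors, the level of each gene within a cell group differed by less than 2-fold for all members that could be called. In epithelial-like cells Pvr was lower in the large tumor by a ratio of 0.537 (0.405 to 0.700) and Cd276 by 0.599 (0.344 to 0.978), while Cd47 was higher by 1.16 (1.06 to 1.27). Without the enterocyte-like and goblet-like clusters, a choice made after seeing the data, these ratios were 0.538, 0.698 (0.393 to 1.15) and 1.28 (1.16 to 1.40). With cells of both tumors thinned to 500 UMIs the Cd47 ratio was 1.005 (0.821 to 1.23). In macrophage-like cells Cd47 had a ratio of 1.30 (0.975 to 1.72), Sirpa 0.846 (0.512 to 1.34) and Cd86 0.629 (0.340 to 1.08), all with intervals that span equality. None of the tested members passed a ratio of 2 in either group, where 28.7% and 21.2% of all genes did. Pdcd1lg2, not called for its 19 UMIs, was at 3.06 CPM in the large and 0.718 CPM in the medium tumor's epithelial-like cells, a ratio of 4.26 (1.33 to 12.0). Tumor size, mouse and library cannot be told apart here.

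For the 6 members with 50 or more UMIs, which leaves out Cd80 and Pdcd1lg2, the genes whose levels moved most like each were sought over the 14 clusters of the medium tumor, as Pearson's r of log2(CPM + 10) among 7838 genes with 200 or more UMIs. The clusters share 1 library and its free RNA, and the values describe them only. Cd86 was most like the scavenger receptor gene Msr1 (0.991), then Cxcl3 (0.989) and the properdin gene Cfp (0.988). Sirpa was most like Il1b (0.973), Kctd12 (0.970) and Rac2 (0.969), and Cd274 most like the chemokine gene Ccl17 (0.967), Lilr4b (0.966) and Il1a (0.964). Cd276 was most like Map4k5 (0.932), Csrp1 (0.931) and Strn4 (0.909), and Pvr most like the transcription factor gene Klf6 (0.892), the phosphatase gene Dusp7 (0.892) and Ttbk2 (0.856). Cd47, with the flattest profile, had the lowest values, with the caveolin gene Cav1 (0.854), March2 (0.829) and Arhgap10 (0.821).

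The genes for the receptors that read these ligands on T and NK cells had few UMIs. In the medium tumor Pdcd1, which encodes PD-1, had 6 UMIs, Ctla4 7 and Cd28 6, of which 6, 6 and 5 were in epithelial-like cells. Of the receptor genes for the Pvr protein, Tigit had 10 UMIs, Cd226 1 and Cd96 none of 20301669 UMIs, which allows up to 0.148 CPM. Epithelial-like cells held 9 of the Tigit UMIs. The same list held 4 receptor genes whose ligands are not among the 8 genes: Lag3 had 112 UMIs, Havcr2 31, Icos 16 and Btla 1. Of the Lag3 UMIs 99 were in epithelial-like and 1 in macrophage-like cells, 5.47 against 1.09 CPM and a ratio of 0.199 (0.00498 to 1.13). In the large tumor 9 of the 10 receptor genes were at 0, a limit of 1.34 CPM each, and Havcr2 had 8 UMIs.

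Other genes that T or NK cells read, or that belong to engulfment and to the paths around the ligands, were compared between macrophage-like and epithelial-like cells of the medium tumor, beside a median ratio of 0.702 over all genes tested, of which 9.79% were higher in macrophage-like and 32.9% in epithelial-like cells. Of 12 other ligand genes 7 were tested, of which 3 were higher in macrophage-like and 2 in epithelial-like cells, with a median ratio of 1.00. VISTA (Vsir) had a ratio of 49.7 (32.7 to 77.4), Tnfsf9 one of 5.23 (3.79 to 7.12), and Raet1e, with 48 UMIs and not called, 3.93 (1.59 to 8.51). B7-H4 (Vtcn1), at 0.103 (0.00259 to 0.580), and Nectin2, a relative of Pvr that TIGIT also reads, at 0.104 (0.0521 to 0.187), were epithelial-like. Tnfrsf14 was listed at 0 in both tumors. Nectin2 was at 11.9 CPM in macrophage-like and 114 CPM in epithelial-like cells.

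Of 15 genes of phagocytosis and clearance 13 were tested, 8 being higher in macrophage-like and 2 in epithelial-like cells, with a median ratio of 4.00, where 9.79% and 32.9% of all genes were. The Fc receptor genes Fcgr2b, at 108 (83.9 to 141), and Fcgr3, at 94.7 (81.9 to 110), and the lipid receptor gene Trem2, at 101 (74.1 to 139), had the highest ratios. Mfge8, which bridges apoptotic cells and phagocytes, had 0.372 (0.277 to 0.490). Cd24a, whose protein is a further brake on phagocytosis, had 0.496 (0.444 to 0.553), with 742 CPM in epithelial-like and 368 CPM in macrophage-like cells. The Axl ligand gene Gas6 had 0.773 (0.514 to 1.12). Of the 5 genes below Sirpa, 4 were higher in macrophage-like cells, with a median of 11.7. Dock2 had 40.2 (23.6 to 70.3), Fyb 13.3 (9.28 to 18.8) and the phosphatase gene Ptpn6, which SIRPα recruits, 11.7 (8.67 to 15.7), while the related Ptpn11 had 0.844 (0.599 to 1.16). Of 12 genes of the interferon-gamma path, 5 were higher in macrophage-like cells and none in epithelial-like cells, with a median of 1.94. The antigen presentation genes Cd74 and B2m had 113 (105 to 122) and 7.22 (6.89 to 7.57) and the factor Irf8 14.8 (11.02 to 19.9). Jak2 had 0.582 (0.316 to 0.986) and the receptor gene Ifngr1 0.966 (0.775 to 1.19), close to equality.

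The lists were also read across the epithelial-like clusters of the medium tumor, each against all other epithelial-like cells. In the Inhba cluster all 5 tested genes among the other ligands read by T or NK cells (Vtcn1, Lgals9, Nectin2, Tnfsf9 and Ceacam1) were lower by a ratio of 2 or more, as were 12.7% of all genes. Of 11 tested genes of phagocytosis and clearance, Axl, Pros1, Fcgr3 and Trem2 were higher there (7.88% of all genes) and Gas6 was lower, in the cluster where macrophage markers were also highest. In the Dmbt1 cluster Vtcn1, Tnfsf9 and Ceacam1 were higher (10.3% of all genes) and none of the 5 was lower. Of the 11 genes, Gas6 was higher there and Axl and Pros1 were lower (12.7% of all genes). In the Krt17 cluster Lgals9 and Ceacam1 were lower (8.41% of all genes), as was Pros1, and Thbs1 was higher (9.22% of all genes). In the other 5 clusters at most 1 of the 5 ligand genes passed the ratio, in each case Ceacam1. Of the 11 genes, Gas6 was higher and Lrp1, Axl, Pros1 and Fcgr2b were lower in the Reg1 cluster, where 18.4% of all genes passed in either direction. Gas6, Fcgr2b and Trem2 were lower in the Mcpt8 cluster (8.42% of all genes) and Gas6 and Trem2 in the Top2a cluster (10.1%). Gas6 and Pros1 were lower in the Yap1 cluster (12.9% of all genes) and Axl in the Gkn1 cluster (8.22%). Of the 4 tested genes below Sirpa at most 1 passed the ratio in any of the 8 clusters, Fyb or Ptpn6. Of the 12 genes of the interferon-gamma path, 3 were higher and 2 lower in the Dmbt1 cluster (10.3% and 12.7% of all genes). At most 2 of the 12 passed in each of the other 7. Over the 8 clusters, 9.41% to 23.0% of all genes passed in either direction. Lag3, the single receptor gene tested, was higher in the Dmbt1 and lower in the Reg1 cluster. These clusters were described with their values known.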

How the data were processed

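Single cells of the tumors were counted by the authors with Cell Ranger against mm10, per the submitters' processing notes (version not given in the sources used here), and the deposited values are whole UMI counts per gene and cell, not normalized, in 1 table per tumor. The tables were used whole, with 0 columns left out. Clusters came from Seurat 5.3.0 in R 4.3.3 (log normalization to 10000, 2000 variable genes, 10 principal components, resolution 0.8). A marker counted where seen in 10% of a cluster's cells at 25% of the highest cluster's level, and a name needed 3 markers. A cluster with 60% of another type's markers stayed unnamed, and these limits were set after marker values had been seen. Cd86 in the medium and Cd274 in the large tumor were among the variable genes. Scrublet (scanpy 1.11.5) called 0 and 9 doublets (0.587% of the large tumor's cells), none removed. Component 1 used 1000 genes. TMM factors came from edgeR 4.0.16. Steps were tested on simulated data. The 13 mitochondrial genes had 0 UMIs in both tables. Members and lists were chosen with earlier results of these data known. Pathway genes named are those with the most extreme ratios, up to 3 each way per list, among genes with 50 or more UMIs in the medium tumor, and genes at 0. Named like genes are the 3 with the highest r. Some alleles and genes are not reported here.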

Additional observations from a re-analysis of the deposited data

How the results depend on the processing

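No paired analysis was possible because the 4 technical replicates that share numbers between the tumors are pooled in 1 table each, and for the same reason no replicate could be left out. Of 38 alternative values for the counts of members, or of chosen pairs of member and cluster, past a ratio of 2, 31 stayed within 1.5 times the value reported. No ratio past 2 changed direction under an alternative. Ratios near 1 did: that of Cd47 between macrophage-like and epithelial-like cells went from 1.12 to 0.786 (0.454 to 1.27) in the large tumor without cells under 500 genes, and from 1.00 to between 0.962 and 0.999 under 4 alternatives in the medium tumor, and that of Pvr in the large tumor's cluster highest in Hmga2 went from 1.06 to 0.627 (0.218 to 1.47) at a resolution of 1.2, all with intervals that span equality. With a minimum of 200 UMIs, 2 members passed between macrophage-like and epithelial-like cells of the medium tumor in place of 4, since fewer were tested. With no minimum, 5 members passed in the large tumor and 5 between the tumors, in place of 0. With each cell called by its own markers, 1 passed in each of these comparisons. The 5 in the large tumor were Cd274, Cd276, Sirpa, Cd80 and Cd86. Of these, Cd80 rested on 1 UMI in epithelial-like and 0 in macrophage-like cells. Over the alternatives, 31.9% to 64.3% of all genes passed in the large tumor, so the 5 are not read as particular to the members. Thinned to 2500 UMIs, 0 passed between the ends of component 1 in place of 1. At a resolution of 1.2, 2 of 4 genes (Cd47, Pvr, Pdcd1lg2 and Cd276), taken with no minimum of UMIs, passed in the large tumor's cluster highest in Hmga2 in place of 1. Leaving out epithelial-like clusters without a leading epithelial marker gave ratios of 54.04 for Cd86, 14.7 for Sirpa, 0.388 for Pvr and 0.0772 for Cd276 in the medium tumor, where only the Krt17 cluster remained. Thinning gave 196 for Cd86 and 6.53 for Pdcd1lg2 in the medium tumor, and 24.1 for Cd274 and 18.1 for Sirpa in the large tumor. At a resolution of 0.4 Cd276 had 0.277, and at 1.2 Pdcd1lg2 had 11.7, against 1.29 (0.0304 to 8.45) with each cell called by its own markers. Under edgeR's TMM the median of all genes shifted by 0.07 and -0.09 on the log2 scale and no member passed. Leaving out cells under 500 genes removed 0 cells of the medium tumor, and the clusters without a leading epithelial marker could not be left out of the large tumor, where 0 epithelial-like cells would stay. Depth limits Cd80, Pdcd1lg2 and Cd274 in both tumors and every member but Cd47 and Pvr in the large tumor.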

Other observations

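In the large tumor 7 granulocyte markers summed to 2922 UMIs, 1305 CPM, against 123 CPM in the medium tumor, with 24 and 30 cells that held 3 or more of them and no cluster of that name in either tumor.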
